A study of Mus musculus with 10 samples.

Results

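Autophagy and lysosome genes were compared between 4T1 mouse mammary carcinoma cells grown in a denser and in a looser collagen gel. The set held 39 listed genes, each found through an array row that names that gene alone, with the brightest row taken where a gene had several. All 39 had 1 such row, out of 30142 genes with a row, and all 39 lay above the signal floor with 17800 genes in all. They comprised 20 autophagosome genes, 12 genes of the lysosomal membrane, hydrolases and lumen, 5 proton pump subunits and 2 transcription factors. In the denser gel 19 of the 39 were lower, 5 were higher and 15 did not pass the test, where 19.5% of all genes tested were lower and 31.4% were higher.

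4T1 is an established line, so all samples came from 1 line of carcinoma cells and no other cell type was named for either gel. The LD group was 5 arrays of 4T1 cells in gels with 2 mg/mL collagen, and the HD group was 5 arrays of the same cells in gels with 3.5 mg/mL. Both groups started from 50000 cells and were harvested after 5 days at 37 °C under 5% CO2; the RPMI medium held 10% fetal bovine serum and was renewed on day 3, and no drug, allele or transgene was named. Total RNA was measured on Affymetrix MTA 1.0 arrays, 1 array a sample, and values are log2 RMA signals, on which a difference of 1 is a doubling. Whether the 5 samples of a gel density were separate cultures is not stated, so the p-values reflect only how these samples scatter, possibly for technical reasons. In such bulk RNA, fewer cells of a type and less RNA per cell cannot be told apart.

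Autophagy encloses cytoplasm in a double membrane, the autophagosome, which then fuses with the lysosome. A kinase complex starts the process, a lipid kinase complex and lipid transfer proteins grow the membrane, and a pair of conjugation reactions attach ATG8 proteins to it, to which cargo receptors bind. The lysosome degrades the content with acid hydrolases, in a lumen acidified by a proton pump, the V-ATPase. The transcription factors TFEB and TFE3 are known to drive many lysosome and autophagy genes through an E-box element called CLEAR.

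Promoter windows from RefSeq (assembly GRCm38.p6, 250 bases before to 50 bases after a gene's start) were found for 32 of the 39 members, in 36 windows. The E-box core CACGTG, a palindrome that reads alike on both strands, occurred in 9 of the 36 member windows, in 7.15% of all 32851 windows and in 9.4% of the 14013 windows of tested genes. These 9 members were Atg14, Atg3, Atg5, Atg7, Atp6v0d1, Atp6v1a, Gaa, Lamp1 and Mcoln1, of which 4 were lower in HD, 2 were higher and 3 did not pass. Of the 32 members with a window, 17 were lower, 4 were higher and 11 did not pass. Of all genes tested, 19.5% were lower and 31.4% were higher. The longer palindrome TCACGTGA, which contains the core, occurred in 4 members and in 1.57% of the windows of tested genes. The CLEAR palindrome that adds 1 more base at each end occurred in 0 member windows and in 0.607% of the windows of tested genes. Stretches from 150 bases before to 10 bases from the start are printed 5′ to 3′ on the gene's strand, with each CACGTG in capitals, for the 4 members that hold TCACGTGA and for Lamp1, which holds 4 copies of the core. The core is thus printed for genes that were lower (Mcoln1, Atp6v0d1), higher (Atg3) and not past the threshold (Atp6v1a, Lamp1). Lamp1 holds the core without TCACGTGA, and in Atp6v0d1 the core spans the start. The part of the element in these changes was not tested.
Mcoln1, chr8:3500369-3500528, plus strand: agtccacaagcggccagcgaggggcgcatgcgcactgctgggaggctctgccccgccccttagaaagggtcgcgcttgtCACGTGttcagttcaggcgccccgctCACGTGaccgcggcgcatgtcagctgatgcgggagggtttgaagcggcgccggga
Atp6v0d1, chr8:105566055-105566214, minus strand: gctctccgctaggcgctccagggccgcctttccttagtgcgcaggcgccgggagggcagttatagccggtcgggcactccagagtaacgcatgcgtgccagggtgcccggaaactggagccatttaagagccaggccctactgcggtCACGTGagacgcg
Atg3, chr16:45158679-45158838, plus strand: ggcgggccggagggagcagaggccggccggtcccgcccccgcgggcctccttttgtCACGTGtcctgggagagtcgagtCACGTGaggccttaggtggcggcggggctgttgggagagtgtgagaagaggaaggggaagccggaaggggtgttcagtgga
Atp6v1a, chr16:44139250-44139409, minus strand: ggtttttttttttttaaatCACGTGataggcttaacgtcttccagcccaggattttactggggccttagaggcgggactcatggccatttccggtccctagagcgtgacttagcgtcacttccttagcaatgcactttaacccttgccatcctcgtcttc
Lamp1, chr8:13159011-13159170, plus strand: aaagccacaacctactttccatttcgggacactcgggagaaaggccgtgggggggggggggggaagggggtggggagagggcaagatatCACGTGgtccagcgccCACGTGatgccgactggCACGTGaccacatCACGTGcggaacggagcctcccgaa
A match is a description of letters and not of a bound site.

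Lower signals in the denser gel were the more frequent call among these genes. HD was tested against LD with limma over all 17800 genes, with Benjamini-Hochberg adjustment over all of them and a threshold of 0.05. By this test 48.7% of the members were lower in HD, against 19.5% of all genes tested, and 12.8% were higher, against 31.4% of all genes. Of genes above a stricter floor (log2 6.96), as 36 of the members were, 22.8% were lower and 36.7% were higher. In either direction 50.9% of all genes passed, so a single passing gene is common in these data. The median change, HD minus LD, was -0.093 over the members and 0.055 over all genes. With a fold of at least 1.2 also required, 9 members were lower and 3 were higher, where 8.09% and 10.9% of all genes were. Groups without overlap were found for 23 members, with HD wholly below LD in 17 and wholly above in 6, and 36.7% of all genes had such groups (15.1% wholly below and 21.6% wholly above). The members were chosen with earlier results of these data known, so these shares are descriptions.

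**Figure D1:**
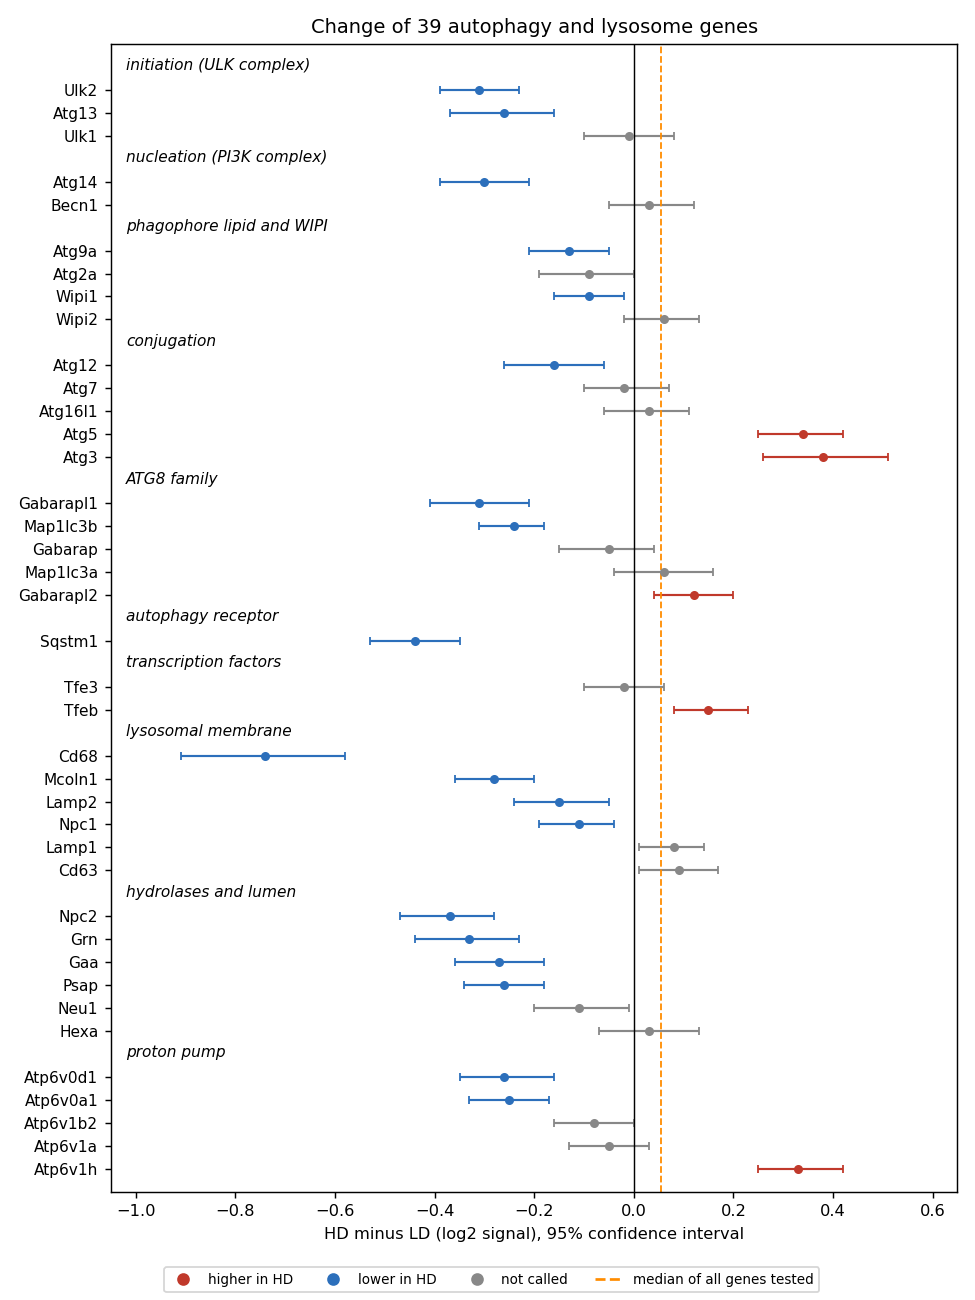
Change of each of the 39 members, HD minus LD on the log2 scale, with the 95% confidence interval from limma, grouped by role and coloured by call; the dashed line is the median of all genes tested (0.055). The lysosomal membrane and lumen genes hold no higher call, and Cd68 lies farthest to the left at -0.74.

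Counts per array restate the tilt toward lower signals in HD, since each member's mean spans both groups. They show only how it spread over the arrays. In the 5 LD arrays, 21 to 29 of the 39 members lay above their own mean over the 10 arrays, and in the 5 HD arrays 10 to 16 did. Signals of replicate arrays lay close together, with a median SD within groups of 0.0557 over the members, from 0.0222 for Wipi1 to 0.144 for Cd68, and 0.0734 over all genes.

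In the ULK complex, which starts autophagosome formation, 2 of 3 members fell, where 19.5% of all genes were lower. Ulk2, a kinase of the complex, read 8.43, 8.41, 8.32, 8.36 and 8.29 in LD and 8.09, 8.07, 7.98, 8.07 and 8.04 in HD. Every HD array lay below every LD array. The mean went from 8.36 ± 0.0596 to 8.05 ± 0.0447 (SD, n = 5 each), a change of -0.31 (SE 0.0388, limma adjusted p = 1.8e-05). Atg13, the subunit that links the kinase to its partners, fell by 0.26 (limma adjusted p = 5.5e-04), again without overlap. Ulk1, the paralogue of Ulk2, gave 8.71 ± 0.0465 and 8.70 ± 0.0713, a change of -0.01 with a 95% interval from -0.10 to 0.08 (limma adjusted p = 0.82).

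Of the lipid kinase complex that nucleates the membrane, Atg14, the subunit that directs it to autophagy, fell. Atg14 read 7.11, 7.21, 7.06, 7.00 and 7.11 in LD and 6.84, 6.80, 6.79, 6.75 and 6.79 in HD, with no overlap. The change was -0.30 (SE 0.0411, limma adjusted p = 4.2e-05), or 1.23-fold lower. Scaling by control rows, described further on, brought it to -0.17 (adjusted p = 0.013). Becn1, the scaffold of the same complex, had a change of 0.03 with an interval from -0.05 to 0.12 (adjusted p = 0.49).

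Among 4 genes of the growing membrane, Atg9a and Wipi1 fell by small amounts, where 19.5% of all genes were lower. Atg9a, which encodes a membrane protein that scrambles lipids, read 8.03, 7.97, 7.96, 8.00 and 7.96 in LD and 7.82, 7.94, 7.84, 7.87 and 7.78 in HD. The highest HD array lay just under the lowest LD arrays, and the change was -0.13 (SE 0.0370, limma adjusted p = 0.0083). Wipi1, which binds the lipid that the kinase makes, fell by 0.09 (limma adjusted p = 0.027). Both calls depended on settings: Atg9a had adjusted p = 0.088 after quantile normalization and 0.087 with control-row scaling, and Wipi1 lost its call without LD replicate 1, 3 or 4 or without HD replicate 3 or 4 (adjusted p from 0.051 to 0.068). Atg2a, a lipid transfer protein, had a change of -0.09 (interval -0.19 to 0.00, adjusted p = 0.094), and passed without HD replicate 2 (adjusted p = 0.038). Wipi2, the relative that recruits the conjugation machinery, had HD wholly above LD but a change of 0.06 that did not pass (adjusted p = 0.17).

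Of 5 conjugation genes 2 were higher, 1 was lower and 2 did not pass, where 31.4% of all genes were higher and 19.5% lower. Atg3, the E2-like enzyme that hands ATG8 proteins to lipid, read 7.72, 7.85, 7.71, 7.63 and 7.80 in LD and 8.07, 8.03, 8.07, 8.10 and 8.34 in HD. All HD arrays lay above all LD arrays, with HD replicate 5 the highest. The change was 0.38 (SE 0.0581, limma adjusted p = 1.0e-04), or 1.30-fold higher. Atg5, the protein to which ATG12 is joined, behaved alike. It read 7.78, 7.85, 7.77, 7.82 and 7.88 in LD and 8.23, 8.19, 8.09, 8.10 and 8.18 in HD, a change of 0.34 (SE 0.0392, limma adjusted p = 9.7e-06). Atg12 itself had overlapping groups and fell by 0.16 (limma adjusted p = 0.011). The Atg12 call was lost after quantile normalization (-0.09, adjusted p = 0.13) and with control-row scaling (-0.07, adjusted p = 0.22), and its RefSeq span overlaps that of Ap3s1 by 31 bases. Atg7, the E1-like enzyme, and Atg16l1, the partner of ATG5, had changes of -0.02 (interval -0.10 to 0.07) and 0.03 (interval -0.06 to 0.11), with adjusted p = 0.74 and 0.60. Atg16l1 passed after quantile normalization and with control-row scaling, with a change of up to 0.10 (adjusted p = 0.022).

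ATG8 proteins, which are coupled to the autophagosome membrane, did not move as a family, with 2 lower, 1 higher and 2 not passing. Of all genes, 19.5% were lower and 31.4% were higher. Gabarapl1 read 8.30, 8.28, 8.18, 8.14 and 8.19 in LD and 7.89, 8.03, 7.84, 7.88 and 7.90 in HD. The groups did not overlap, and the change was -0.31 (SE 0.0455, limma adjusted p = 7.3e-05). Map1lc3b, which encodes the LC3 protein most used as an autophagosome marker, lay from 8.19 to 8.25 in LD and from 7.96 to 8.01 in HD, and fell by 0.24 (limma adjusted p = 2.5e-05). The narrow ranges make this 1.18-fold difference several times the spread of either group. Gabarapl2 rose by 0.12 (limma adjusted p = 0.013), with HD wholly above LD. Gabarap and Map1lc3a had changes of -0.05 (interval -0.15 to 0.04) and 0.06 (interval -0.04 to 0.16), of which Map1lc3a passed after quantile normalization (0.14, adjusted p = 0.042).

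Sqstm1 encodes p62, a receptor that carries ubiquitin-tagged cargo into autophagosomes and is itself degraded there. It read 11.00, 10.93, 10.87, 10.88 and 10.84 in LD and 10.51, 10.51, 10.45, 10.44 and 10.40 in HD. The lowest LD array stood well above the highest HD array. The mean fell from 10.90 ± 0.0641 to 10.46 ± 0.0485 (SD, n = 5 each), a change of -0.44 (SE 0.0401, limma adjusted p = 1.3e-06), or 1.36-fold lower.

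**Figure D2:**
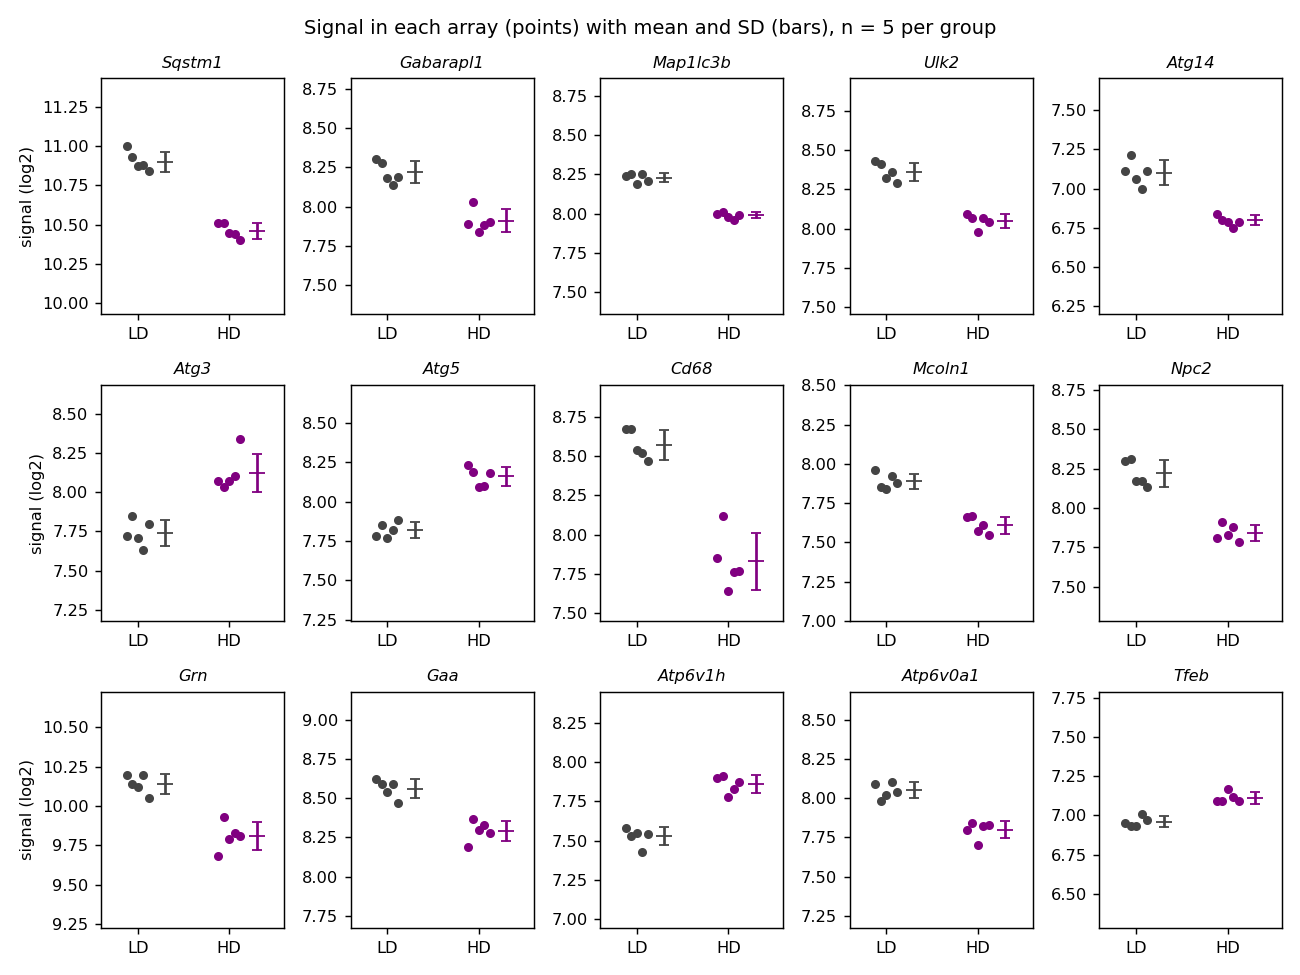
Log2 RMA signal of 15 members in each of the 5 LD and 5 HD arrays (points) with mean ± SD (bars); every panel spans 1.5 log2 units. In all 15 panels the points of the 2 groups do not overlap, and the widest gap is that of Cd68, from 8.47 to 8.67 in LD and from 7.64 to 8.12 in HD. The panels show only called members without overlap, so the lack of overlap follows from their choice. Of the 39 members, 23 had groups without overlap, as had 36.7% of all genes tested.

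On the lysosomal membrane 4 of 6 members fell and none rose, where 19.5% of all genes were lower and 31.4% were higher. Cd68, a heavily glycosylated membrane protein of late endosomes and lysosomes that is used as a macrophage marker, had the largest change of the 39. It read 8.67, 8.67, 8.54, 8.52 and 8.47 in LD and 7.85, 8.12, 7.64, 7.76 and 7.77 in HD, and the groups were far apart. The change was -0.74 (95% interval -0.91 to -0.58, limma adjusted p = 3.2e-06), or 1.67-fold lower. Of 8 other macrophage markers, Adgre1, Csf1r, Itgam, Ptprc, Lyz2 and Mrc1 lay below the signal floor, and only Cd14 (7.46 in LD and 7.72 in HD) and C1qa (5.60 and 5.80) lay above it. C1qa lay at -0.06 from the negative control rows in LD. The summed level of the 8, on the log2 scale and with Cd14 as the brightest, was 8.34 to 8.52 in LD and 8.56 to 8.75 in HD. Its part in the change of Cd68 was not tested.

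Mcoln1 encodes the calcium channel TRPML1 of the lysosomal membrane. It read 7.96, 7.85, 7.84, 7.92 and 7.88 in LD and 7.66, 7.67, 7.57, 7.61 and 7.55 in HD. No arrays overlapped, and the change was -0.28 (SE 0.0384, limma adjusted p = 4.2e-05). Lamp2, a membrane glycoprotein also needed for chaperone-mediated autophagy, fell by 0.15 (limma adjusted p = 0.015) with overlapping groups, and by 0.31 with control-row scaling. Npc1, the membrane exporter of cholesterol, fell by 0.11 (limma adjusted p = 0.016), but its change was -0.03 after quantile normalization (adjusted p = 0.43) and -0.02 with control-row scaling (adjusted p = 0.72), and its RefSeq span overlaps Rmc1 by 8982 bases. Lamp1 and Cd63, a major structural glycoprotein and a tetraspanin, gave 0.08 (interval 0.01 to 0.14, adjusted p = 0.061) and 0.09 (interval 0.01 to 0.17, adjusted p = 0.063). Their direction depended on the scaling: with control rows Lamp1 was at -0.16 (adjusted p = 0.012) and Cd63 at -0.18 (adjusted p = 0.014). Without that scaling, both passed as higher in HD with a stricter floor and with array weights, and Lamp1 also with trended robust variances.

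Of the hydrolases and other lumen proteins, 4 of 6 were lower and none was higher, where 19.5% and 31.4% of all genes were. Npc2, the lumen protein that passes cholesterol to NPC1, read 8.30, 8.31, 8.17, 8.17 and 8.13 in LD and 7.81, 7.91, 7.83, 7.88 and 7.78 in HD. Its arrays did not overlap, and the change was -0.37 (SE 0.0452, limma adjusted p = 1.4e-05), or 1.30-fold lower. Grn encodes progranulin, a secreted and lysosomal protein whose loss is known to cause lysosomal storage. It read 10.20, 10.14, 10.12, 10.20 and 10.05 in LD and 9.68, 9.93, 9.79, 9.83 and 9.81 in HD, a change of -0.33 (SE 0.0474, limma adjusted p = 5.6e-05). HD replicate 1 was the lowest and HD replicate 2 the highest of its group, both below all LD arrays.

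Gaa, the acid alpha-glucosidase that breaks down glycogen, read 8.62, 8.59, 8.54, 8.59 and 8.47 in LD and 8.19, 8.37, 8.30, 8.33 and 8.28 in HD. Again no HD array reached the lowest LD array, and the change was -0.27 (SE 0.042, limma adjusted p = 1.2e-04). Psap, the precursor of the saposins that help sphingolipid hydrolases, fell by 0.26 (limma adjusted p = 7.2e-05) without overlap, and by 0.49 with control-row scaling (adjusted p = 7.6e-06). Hexa, a subunit of beta-hexosaminidase, had a change of 0.03 (interval -0.07 to 0.13, adjusted p = 0.64), but passed after quantile normalization and with control-row scaling, at up to 0.17 (adjusted p = 0.026). Neu1, the lysosomal sialidase, had one of -0.11 (interval -0.20 to -0.01, adjusted p = 0.059), and passed without HD replicate 3 or without HD replicate 5 (adjusted p = 0.045 and 0.031). Together the 12 membrane and lumen members had 8 lower (66.7%) and 0 higher calls and a median change of -0.20. The 20 autophagosome members had 9 lower (45%) and 3 higher (15%) calls and a median of -0.07. Of all genes tested, 19.5% were lower and 31.4% were higher. The difference between the 2 groups of members was not tested.

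TFEB and TFE3 are the transcription factors of the set. Tfeb read 6.95, 6.93, 6.93, 7.01 and 6.97 in LD and 7.09, 7.09, 7.17, 7.12 and 7.09 in HD. It was higher in every HD array, by 0.15 (SE 0.0343, limma adjusted p = 0.0022), or 1.11-fold. The difference was 0.24 after quantile normalization and 0.27 with control-row scaling. Tfe3 had a change of -0.02 with an interval from -0.10 to 0.06 (adjusted p = 0.71). These are RNA levels, whereas both factors are known to be controlled through phosphorylation and entry into the nucleus, which arrays do not measure.

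The proton pump has a membrane sector, V0, and an ATPase sector, V1. Of the 5 member subunits Atp6v1h, a regulatory V1 subunit, rose and the V0 subunits Atp6v0a1 and Atp6v0d1 fell. Among all genes tested, 31.4% were higher and 19.5% were lower. Atp6v1h read 7.58, 7.53, 7.55, 7.43 and 7.54 in LD and 7.90, 7.91, 7.78, 7.83 and 7.87 in HD. All HD arrays were higher, and the change was 0.33 (SE 0.0399, limma adjusted p = 1.3e-05), or 1.26-fold. Atp6v0a1 fell by 0.25 (limma adjusted p = 1.2e-04) and Atp6v0d1 by 0.26 (limma adjusted p = 3.2e-04), both without overlap. Atp6v1a and Atp6v1b2, which form the catalytic head, had changes of -0.05 (interval -0.13 to 0.03) and -0.08 (interval -0.16 to 0.00), with adjusted p = 0.25 and 0.096. Atp6v1b2 passed after quantile normalization, with control-row scaling and with array weights, at down to -0.16 (adjusted p = 0.0075).

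With 15 further subunits and accessory genes tested, 9 of 20 pump genes were higher (45%, against 31.4% of all genes) and 5 were lower (25%, against 19.5% of all genes). Of genes above the stricter floor, 36.7% were higher and 22.8% were lower. The split by sector was made after the values had been seen. In V1, 6 of 11 genes (54.5%) were higher and 0 were lower: Atp6v1h, Atp6v1e2 (0.22), Atp6v1c1 (0.22), Atp6v1c2, Atp6v1e1 (0.14) and Atp6v1f (0.14). The calls of Atp6v1e1 and Atp6v1f did not hold in every alternative, with adjusted p up to 0.081 and 0.071, and among the single arrays LD replicates 3, 4 and 5 and HD replicates 1 and 2 each decided the first, and LD replicates 1 and 5 and HD replicate 2 the second. In V0, 3 of 7 were higher, Atp6v0e (0.44), Atp6v0a2 (0.31) and Atp6v0e2, and 3 were lower. The signals of Atp6v1c2 and Atp6v0e2 lay close to the negative control rows, at -0.05 and 0.23 from them in LD and 0.36 and 0.71 in HD, so the sizes of their changes are not read here.

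The a subunit of V0, whose isoforms place the pump on different membranes, moved in both directions. The a3 isoform gene Tcirg1, known for its role in osteoclasts, fell from 9.37 ± 0.0928 to 8.89 ± 0.0859, a change of -0.48 (limma adjusted p = 5.3e-06), and the a1 gene Atp6v0a1 fell too, whereas the a2 gene Atp6v0a2 rose (limma adjusted p = 1.2e-05). Both accessory genes, Atp6ap1 (-0.19) and Atp6ap2 (-0.15), were lower in HD.

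**Figure D3:**
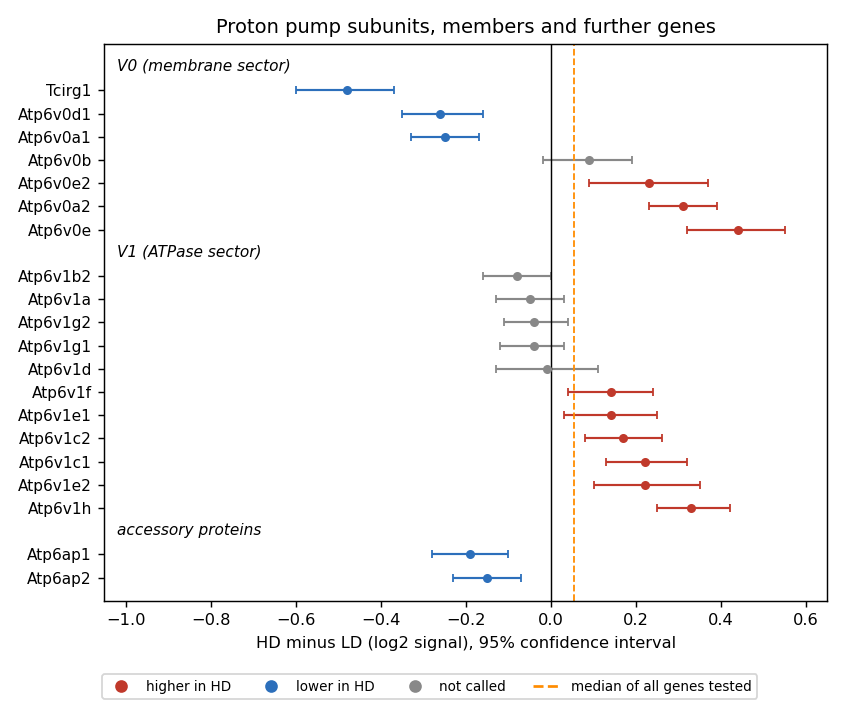
Change of 20 proton pump genes, HD minus LD on the log2 scale, with 95% confidence intervals from limma, in the V0 sector, the V1 sector and the accessory proteins, coloured by call. V1 shows 6 higher and 0 lower calls, V0 shows 3 of each, and both accessory genes are lower. Of all genes tested, 31.4% were higher and 19.5% were lower. The split by sector was made after the values had been seen. The calls of Atp6v1e1 and Atp6v1f did not hold in every alternative, and Atp6v1c2 and Atp6v0e2 lie close to the negative control rows.

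Further genes of the same systems were read from lists of 113 genes, of which 104 had a row and 96 were tested. In HD 25 were higher (26%, against 31.4% of all genes) and 35 were lower (36.5%, against 19.5%). Lysosomal hydrolases and lumen proteins outside the members gave 15 lower and 4 higher calls among 25 tested, a share of 60% lower against 19.5% of all genes, with a median change of -0.16. Tpp1, the tripeptidyl peptidase lost in a childhood ceroid lipofuscinosis, fell by 0.58 (limma adjusted p = 7.8e-07). Idua, the alpha-iduronidase of glycosaminoglycan breakdown, fell by 0.53 (limma adjusted p = 4.7e-07), and its RefSeq span overlaps Slc26a1 by 8503 bases. Not all hydrolases shared this direction: Gusb, the beta-glucuronidase, rose by 0.28 and Arsb, the arylsulfatase B, by 0.18 (limma adjusted p = 2.2e-05 and 0.0019).

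Of 20 tested genes of the lysosomal membrane and of delivery to it, 6 were higher (30%, near the 31.4% of all genes) and 6 were lower (30%, against 19.5%). Ctns, the exporter of cystine, lay from 8.49 to 8.88 in LD and from 7.57 to 7.76 in HD. The 2.04-fold lower signal in HD (-1.03, limma adjusted p = 1.3e-07) exceeded that of any of the 39 members. Slc17a5, the sialic acid exporter, fell by 0.32 (limma adjusted p = 4.2e-05). The higher genes with the largest changes, Nagpa (0.33) and Gnptab (0.28), both encode enzymes that make the mannose 6-phosphate tag by which hydrolases are sorted (limma adjusted p = 2.4e-05 and 3.4e-05).

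The further autophagosome genes gave 9 lower and 6 higher calls of 29 tested, or 31% lower and 20.7% higher, against 19.5% and 31.4% of all genes. Atg9b, the paralogue of Atg9a, lay from 8.91 to 9.19 in LD and from 7.34 to 7.84 in HD. Its mean fell from 9.05 ± 0.128 to 7.55 ± 0.201 (SD, n = 5 each), 2.83-fold lower (limma adjusted p = 3.3e-08), against 1.10-fold for Atg9a. The RefSeq span of Atg9b overlaps that of Nos3 by 294 bases, and Nos3 had a change of 0.06 (adjusted p = 0.26). Calcoco1, a cargo receptor, was 1.82-fold lower (limma adjusted p = 5.1e-08). Nbr1, a receptor that works beside p62 and was picked after its value was seen, was 1.38-fold lower (limma adjusted p = 5.8e-07). Atg4a, a protease that trims ATG8 proteins, and Uvrag, a subunit of the lipid kinase complex, rose by 0.31 and 0.23 (limma adjusted p = 0.0018 and 1.1e-04), though a dimmer second row of Uvrag gave 0.06.

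Around TFEB, 2 of 7 tested genes fell (28.6%, against 19.5% of all genes) and 1 rose, where 31.4% of all genes did. Fnip1, a partner of folliculin in the complex that controls the phosphorylation of TFEB, fell by 0.42 (limma adjusted p = 3.1e-06). Flcn, folliculin, fell by 0.09 (adjusted p = 0.043) and Fnip2, the other partner, rose by 0.11 (adjusted p = 0.032). The Flcn call was lost in 14 alternatives (adjusted p up to 0.78) and the Fnip2 call in 6 (adjusted p up to 0.084). Omitting any of LD replicates 1, 2, 4 and 5 or HD replicates 1, 3, 4 and 5 ended the first, and any of LD replicates 2, 3 and 5 or HD replicates 2 and 4 the second.

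**Figure D4:**
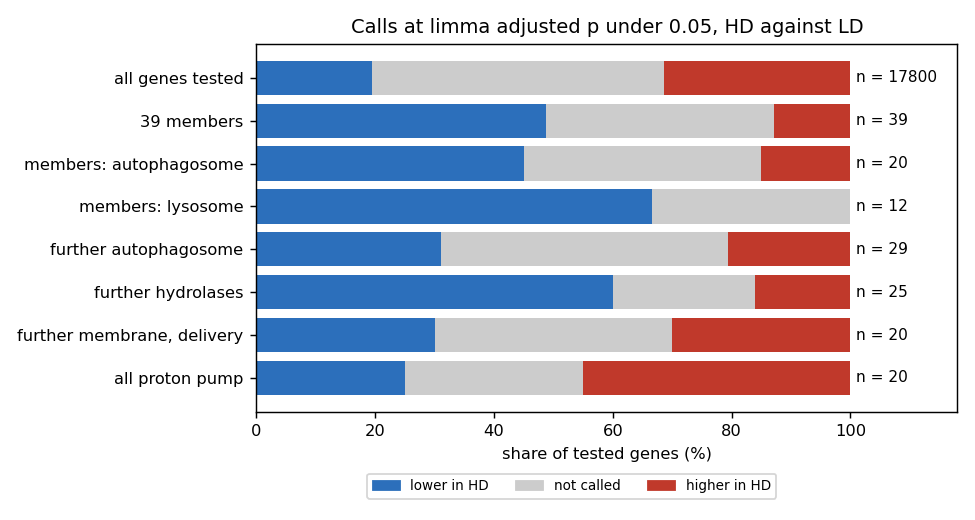
Share of tested genes called lower, not called and called higher in HD (limma adjusted p under 0.05), in percent, for all genes, the members, their autophagosome and lysosome genes, the further genes of the same kinds and all pump genes, with n beside each bar. Lower calls make up 48.7% of the members, 60% of the further hydrolases and 19.5% of all genes.

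The arrays themselves differed between the gels in their control rows. Negative control rows (5222) had a median of 5.67 ± 0.0516 in LD and 5.42 ± 0.124 in HD, and positive control rows (1324) of 9.21 and 9.28. The background rows went from 3.47 to 3.63, the other way from the negative ones. Control-row scaling stretched each array's log2 values linearly so that its negative and positive control medians met common values. It did not use the background rows. This scaling shifted the median change of all genes to 0.133 and that of the members to -0.088. With it 19 members were lower and 7 were higher, where 19.1% and 49.4% of all genes were. After quantile normalization 17 were lower and 8 were higher, against 16.6% and 42.9% of all genes. The part of the control rows in the changes was not tested further. Epithelial markers were all above the floor, with Krt8 at 12.01 and 12.04, while Epcam went from 10.79 to 10.19 and Krt19 from 9.72 to 8.96. Their summed level was 13.70 to 13.74 in LD and 13.52 to 13.62 in HD, so it was lower in HD together with the member genes, and its part in their changes was not tested. Fibroblast markers summed to 7.35 to 7.53 in LD and 7.48 to 7.68 in HD, with Dcn and Lum below the floor. The others, Pdgfrb, Thy1 and Col1a2, lay close to the negative control rows. They were at -0.23, -0.13 and 0.26 from them in LD and at 0.13, 0.24 and 0.64 in HD.

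**Figure D5:**
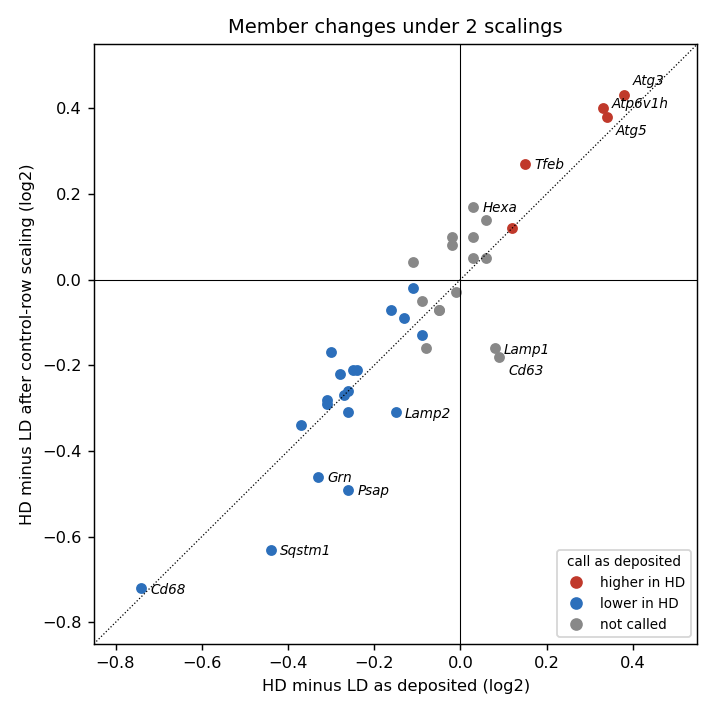
Change of each of the 39 members, HD minus LD on the log2 scale, as deposited (horizontal axis) and after scaling on the control rows (vertical axis), coloured by the call as deposited. Lamp1 and Cd63 turn from 0.08 and 0.09 to -0.16 and -0.18, Psap moves from -0.26 to -0.49, and Tfeb from 0.15 to 0.27.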

How the data were processed

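The authors deposited log2 signals, for which the submitters' processing notes name RMA; the version, annotation and genome build of that step stand as not given in the sources used here. RMA equalises the arrays and compresses folds. The table held 72688 rows, 6732 of them controls. The platform annotation named 1 symbol for 30604 rows and several for 2146, and 827 symbols were updated through RefSeq. A gene was tested if its brightest row's mean exceeded the median of all rows' means (log2 5.24). HD and LD were compared in limma 3.58.1 (R 4.3.3) without covariates, two-sided. The number of arrays, 5 a group, limits the precision. Tables and figures used Python 3.11.15, pandas 2.3.3 and matplotlib 3.10.9. The script was tested on simulated data.

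Members and lists were chosen with earlier results of these data known. Values in every array are given for the called member with the largest change in each of the 10 roles and for other members called with at least a 1.2-fold change; from each wider list the 2 called genes that changed most in each direction are named. Alternatives were quantile normalization, median centring, scaling on control rows, no floor, a stricter floor (log2 6.96), the mean of a gene's rows, trended robust variances, array weights, a replicate block, a 1.2-fold minimum and leaving out each array. Scan dates were not used here. Of the members, 14 overlap another gene in RefSeq, 6 of them a protein-coding gene, and the positions of a row's probes were not used here.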

Additional observations from a re-analysis of the deposited data

Results flagged for a closer look

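Each member was examined for an array that stood apart from the other 4 of its group, in 78 groups of 5 arrays, by the gap to the nearest array as a share of the group's range. In 2 groups this exceeded Dixon's critical value of 0.71, where chance alone flags about 1 in 20 groups. Atg3 in HD replicate 5 was the highest of its group at 8.34, with the others from 8.03 to 8.10 and a share of 0.775; without that array the change of Atg3 was 0.33 (limma adjusted p = 9.5e-05). Gabarap in HD replicate 2 was the highest at 8.75, with the others from 8.60 to 8.62 and a share of 0.842; without it the change was -0.08 (limma adjusted p = 0.12), still not past the threshold.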

How the results depend on the processing

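In all alternatives that tested them other than the 1.2-fold minimum, 15 of the 39 members were called lower and 5 higher. A further 7 were never called. The other 12 changed their call in at least 1, of which 4 had been called as deposited (Atg9a, Wipi1, Atg12 and Npc1). The same count was not made over all genes, of which 50.9% passed as deposited, so it sets no share beside that of the members. With the 1.2-fold minimum, 3 members were higher and 9 lower, as were 1936 and 1440 of all genes and 6 and 15 of the wider lists. After quantile normalization 8 members were higher, and with control-row scaling 8785 of all genes were. Control-row scaling turned Lamp1 to -0.16 (limma adjusted p = 0.012) and Cd63 to -0.18 (limma adjusted p = 0.014). This scaling stretches log2 values in proportion to their distance from the array's negative control median, so its shift of a gene depends on signal level. When each array was left out in turn, 5 to 6 members were higher and 18 to 20 lower, with 4704 to 5603 and 3063 to 3506 of all genes and 21 to 25 and 32 to 36 of the wider lists; 5 members (Atg2a, Wipi1, Lamp1, Cd63 and Neu1) changed their call. Lamp1 passed without HD replicate 1 (adjusted p = 0.042) and Cd63 without HD replicate 2 (adjusted p = 0.037), both as higher in HD. With the replicate number as a block 5 members were higher and 18 lower, and Wipi1 was lost (-0.09, limma adjusted p = 0.062). The deviations of same-numbered arrays correlated above 0.1 in 2 of 5 pairs (0.186 and 0.216) and at -0.0909 to -0.0249 in the other three, so the numbers were not taken as pairs. Among the members Neu1 lay closest to the negative control rows, at 1.08 above them in LD. Of the further pump genes tested, Atp6v1c2 and Atp6v0e2 lay closest to these rows, at -0.05 and 0.23. The background rows had a lower median, 3.47 in LD.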
